A study of Mus musculus with 6 samples.

Results

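The genes described here encode 10 enzymes that remove superoxide and peroxides: the superoxide dismutases Sod1 and Sod2, catalase (Cat), the glutathione peroxidases Gpx1 and Gpx4, the peroxiredoxins Prdx1, Prdx2, Prdx3 and Prdx4, and the thioredoxin reductase Txnrd1. They were chosen by name, and every probe set that the platform annotation pairs with one of them alone was taken. That gave 13 probe sets of the 28940 in the table, with 1 for each of 7 genes and 2 each for Gpx4, Prdx1 and Prdx2. There were 3 arrays of old BALB/c mice, 24 months of age, and they were set against 3 arrays of young BALB/c mice, 2 months of age. All 6 held pro-B and pre-B cells, the bone marrow precursors of B cells, sorted together and given no treatment. Each array was made from 100 ng of RNA that was amplified before labelling. The study asks about B cell progenitors under the inflammation of old age. The labels do not say how many mice went into an array, and p-values here cover the spread between arrays only.

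Superoxide leaks from the mitochondrial respiratory chain, and superoxide dismutases turn it into hydrogen peroxide. Sod1 does so mainly in the cytosol and Sod2 in the mitochondrial matrix. Catalase breaks hydrogen peroxide down in peroxisomes, glutathione peroxidases reduce it with glutathione, and peroxiredoxins reduce it with a reactive cysteine that thioredoxin and thioredoxin reductase restore. B cell precursors pass through bursts of division and of respiratory activity, in which such oxidants are formed. The transcription factor Nrf2, encoded by Nfe2l2, induces several of these genes through a short DNA sequence, the antioxidant response element.

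The core of that element, TGACNNNGC, was searched on both strands in windows of 300 bases around annotated start sites, 250 before and 50 after, from RefSeq (GRCm38.p6). All 10 genes had at least 1 window, 15 windows together, and 3 genes held a match in 1 window each: Prdx1, Txnrd1 and Sod1. Of 32851 windows of this length 12.4% held one. The matches are shown because Nrf2 targets are part of the wider list below. Capitals mark the 9 bases of the match, which in each case lies on the strand opposite to the gene. They start 133, 92 and 56 bases before the start sites of Prdx1, Txnrd1 and Sod1, on chromosomes 4, 10 and 16, at chr4:116685436-116685504, chr10:82859084-82859152 and chr16:90220676-90220744 on the plus strand.
Prdx1: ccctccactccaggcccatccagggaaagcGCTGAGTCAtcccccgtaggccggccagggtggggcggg
Txnrd1: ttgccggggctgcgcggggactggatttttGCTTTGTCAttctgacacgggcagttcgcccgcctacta
Sod1: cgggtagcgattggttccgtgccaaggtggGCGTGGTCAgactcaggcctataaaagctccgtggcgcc
A match is a description of these letters and shows no binding.

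The old arrays were of 2 kinds, and every result below depends on this. Values are given throughout as log2 of intensity. For each array a background level was read from 1210 probe sets of odorant and pheromone receptor genes, as their 95th percentile. It lay at 6.29 and 6.21 on old replicates 1 and 2 and at 5.02 on old replicate 3, against 4.57 to 4.75 on the young arrays. Of the 23410 probe sets with a gene, 14.8% and 17.1% lay above it on old replicates 1 and 2 and 49.2% on old replicate 3, against 52.9% to 56.3% on the young arrays. Across these probe sets, r with the young arrays was 0.607 to 0.702 for old replicates 1 and 2, and 0.978 to 0.985 for old replicate 3. Of 13 measured B progenitor markers 5, 7 and 13 were above background on old replicates 1, 2 and 3, against 13 on every young array. Ebf1, a regulator of the B lineage, read 4.64, 5.61 and 9.70 on the old arrays, with 9.90 to 10.07 on the young ones. Other markers of the list differed from it, and Vpreb1 read 11.13, 11.69 and 10.82, against 10.76 to 11.15. On old replicate 3 Bst1, Igll1 and Dntt read 6.27, 7.86 and 5.13, against 7.50 to 7.76, 8.77 to 9.54 and 6.59 to 8.18. Pax5 was above every young array there, at 9.75 against 9.46 to 9.62. Of 12 neutrophil markers 3, 4 and 12 were above background on the old arrays against 12 on each young array, and S100a8 stood between 10.30 and 11.51 on all 6. Erythroid markers were above background for 1, 2 and 3 of 8 genes on the old arrays and for 6 on each young array. Their mean level was 5.77, 5.6 and 5.13 on the old arrays, against 5.06 to 5.46 on the young arrays. The background levels were higher on the old arrays, so these counts do not show a loss of erythroid signal. Of the monocyte, T and NK cell and plasma cell lists no more than 4 genes were above it on any array. In sorted bulk samples, fewer cells of a type and less RNA per cell cannot be told apart. The interquartile range over the probe sets with a gene was 1.41 and 1.4 on old replicates 1 and 2. It was 2.44 on old replicate 3 and 2.76 to 2.98 on the young arrays. The quality of the RNA and of the arrays was not tested.

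Across all 6 arrays the defence genes had lower means in old than in young progenitors on every probe set, but none passed the threshold. The median difference, old minus young, was -1.67 on the log2 scale over the 13 probe sets, against 0.35 over all 23410 tested and -1.69 over the 4817 with a young mean above 7. The dimmer Prdx2 probe set, Prdx3, Sod2 and Txnrd1 had young means of 6.69, 6.36, 5.98 and 5.98 and are not among those 4817. Shares of the 4817 given below are therefore not a like comparison for these members. With each array centred on its median, the difference over the 13 was -1.93. Of the 13, 0 passed an adjusted p under 0.05 in limma, as did 0.0% of all probe sets. At an unadjusted p under 0.05, 11 of 13 were lower, against 21.9% of all probe sets tested. On 11 of 13 all old values lay below all young values, where 22.9% of all probe sets and 65.7% of the 4817 with a young mean above 7 did so. The same contrast without old replicate 3 put 11 of 13 past the threshold, all lower, beside 82.4% of all probe sets, 30.2% lower and 52.2% higher. All 13 probe sets were above background on old replicate 3 and on the young arrays. On old replicates 1 and 2, only the probe sets of Sod1 and Gpx4 were, 3 of 13, where 28.1% of those 4817 were above it on both.

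**Figure D1:**
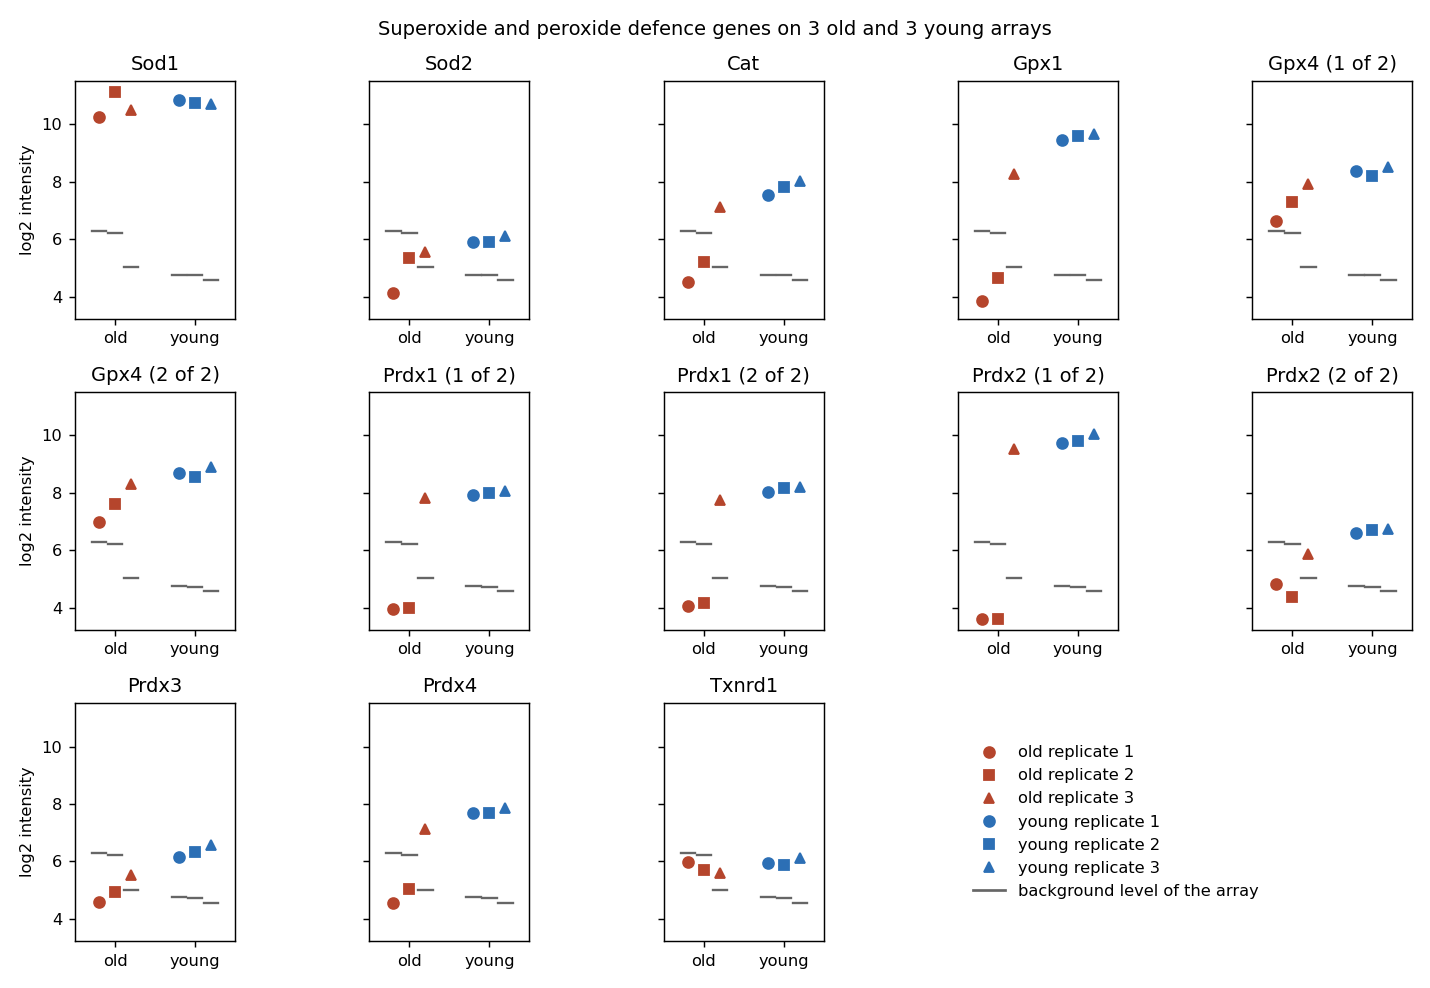
Log2 intensity of the 13 probe sets on each array (vertical axis), with the old arrays in red left of the young arrays in blue, circles, squares and triangles for replicates 1, 2 and 3, and a grey bar at the background level of each array. The Sod1 points lie between 10.24 and 11.13 on all 6 arrays, while those of Gpx1, Prdx1 and Prdx2 lie below background on old replicates 1 and 2.

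Neither superoxide dismutase passed the threshold over all 6 arrays. Sod1, the copper and zinc enzyme, was at 10.24, 11.13 and 10.49 on old replicates 1 to 3, against 10.84, 10.74 and 10.71 on the young arrays. Its groups overlapped, with old replicate 2 above every young array and the other old arrays below. The mean was 10.62 ± 0.46 in old and 10.76 ± 0.07 in young progenitors (SD, n = 3 each), a difference of -0.14 ± 0.28 (SE, limma adjusted p = 0.665). That difference turned to 0.79 after quantile normalization, to 0.26 with array weights and to 0.05 without old replicate 1. Sod1 differed from its young mean by -0.52 and 0.37 on old replicates 1 and 2, where probe sets with a young mean above 7 had a median difference of -2.54 and -2.22. Only 133 of those 4817 probe sets had a higher difference than Sod1 between old replicates 1 and 2 and the young arrays. Sod2, the manganese enzyme of mitochondria, was at 4.12, 5.35 and 5.54 on the old arrays, against 5.89, 5.91 and 6.12 on the young arrays. Every old value was below every young one (-0.97 ± 0.39, SE, limma adjusted p = 0.103). The young values themselves were below the background level of old replicates 1 and 2, so that no size of change can be read from those arrays.

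Catalase was at 4.51, 5.21 and 7.12 in old progenitors, against 7.53, 7.82 and 8.04 in young ones. The old values were all lower, those of replicates 1 and 2 being within background. Old minus young was -2.18 ± 0.64 (SE, limma adjusted p = 0.101). When the values within background are raised to that level, catalase on old replicates 1 and 2 was at least 2.93-fold lower than on the young arrays.

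The glutathione peroxidases lay at different distances below the young arrays. Gpx1, the abundant cytosolic selenoenzyme, was at 3.86, 4.65 and 8.28 on the old arrays, against 9.44, 9.59 and 9.67 on the young arrays. Old replicate 3, well above background, was more than 1 unit below the lowest young array, and old replicates 1 and 2 were at least 9.98-fold below the young mean. Over all arrays the difference was -3.97 ± 1.06 (SE, limma adjusted p = 0.101). Gpx4, the enzyme that reduces lipid peroxides in membranes, was measured by 2 probe sets. The brighter read 6.98, 7.61 and 8.30 on the old arrays, against 8.70, 8.55 and 8.89 on the young arrays. The other read 6.65, 7.30 and 7.92 on the old arrays, against 8.36, 8.19 and 8.53 on the young ones. Both probe sets were above background on all 6 arrays, and both had each old value below each young value. Their differences were -1.09 ± 0.35 and -1.07 ± 0.35 (SE, limma adjusted p = 0.101 for each), and after quantile normalization they turned to 0.27 and 0.18. Within an array the brighter Gpx4 probe set stood at the 93.8, 96.0 and 92.1 percentiles of all probe sets in old progenitors, against 93.2, 92.4 and 93.5 in young ones. Gpx1 by that measure stood at 92.1 on old replicate 3, against 95.6, 95.9 and 96.0 in young progenitors, and being within background on old replicates 1 and 2 it has no readable percentile there. For Gpx4, Prdx1 and Prdx2, the genes with 2 probe sets, RefSeq lists 2, 1 and 2 pseudogenes of the same name. Which copy a probe set reads is not given in the sources used here, so how the signal divides between gene and copies is uncertain.

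**Figure D2:**
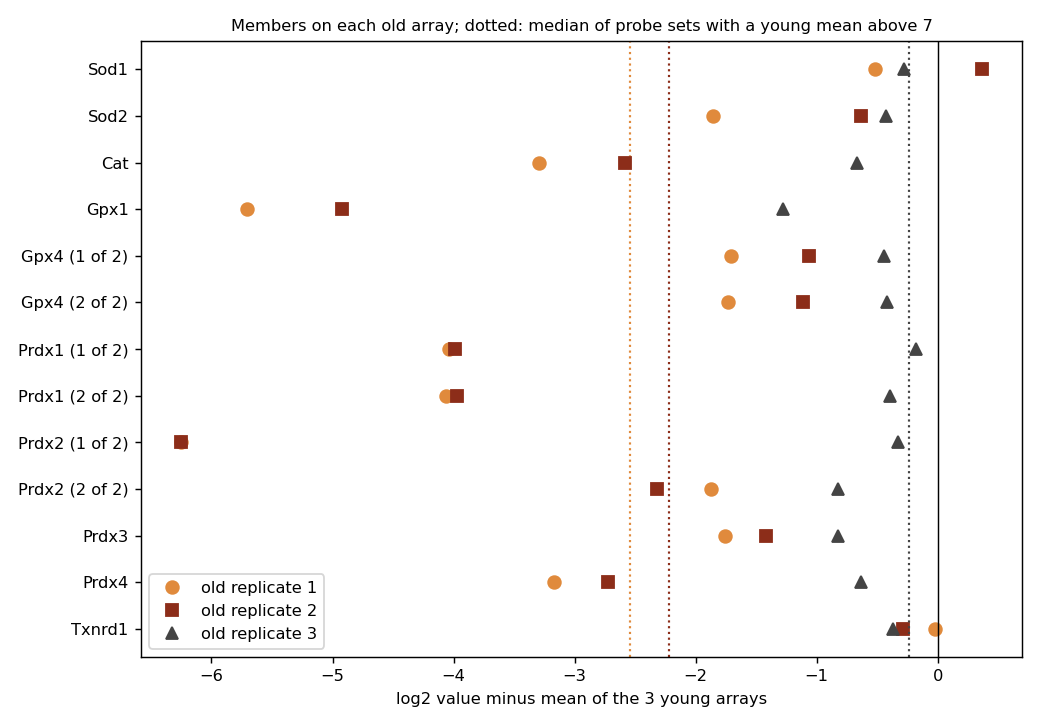
Log2 value of each probe set on old replicates 1, 2 and 3 minus the mean of the 3 young arrays (horizontal axis). Dotted lines give the median, on the same array, of the 4817 whose young mean is above 7, at -2.54, -2.22 and -0.24, and Sod1 and Gpx4, the genes above background on old replicates 1 and 2, lie right of the lines of those arrays. The other points of those 2 arrays are within background, so their distances from 0 are not measured sizes.

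The peroxiredoxins were within background on old replicates 1 and 2 at all 6 of their probe sets. Prdx1, a cytosolic peroxiredoxin, read 4.07, 4.15 and 7.74 on the old arrays, against 8.02, 8.16 and 8.20 on the young arrays at its brighter probe set. Its other probe set read 3.96, 4.0 and 7.81 on the old arrays, against 7.92, 8.01 and 8.05 on the young arrays. The 2 probe sets thus gave nearly the same picture, with old replicate 3 close under the young arrays and values on old replicates 1 and 2 at least 3.69-fold lower at the brighter and 3.36-fold lower at the other. Over all arrays they differed by -2.81 ± 0.95 and -2.74 ± 1.0 (SE, limma adjusted p = 0.101 for each).

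Prdx2, the peroxiredoxin abundant in red cells and also present in other cells, gave different readings at its 2 probe sets. The first read 3.61, 3.61 and 9.52 on the old arrays, against 9.72, 9.80 and 10.04 on the young arrays. The second read 4.82, 4.37 and 5.87 on the old arrays, against 6.61, 6.71 and 6.74 on the young arrays. On both, each old array lay below each young array, by -4.28 ± 1.52 and -1.67 ± 0.39 in the mean (SE, limma adjusted p = 0.101 for each). On old replicates 1 and 2 the first was at least 12.2-fold below the young mean. For the second the bound was 1.36-fold.

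Prdx3, the mitochondrial peroxiredoxin, read 4.60, 4.94 and 5.54 on the old arrays, against 6.15, 6.34 and 6.58 on the young arrays. Its values on old replicates 1 and 2 allow a bound of only 1.08-fold, and the difference was -1.33 ± 0.30 (SE, limma adjusted p = 0.101). Prdx4, which works in the endoplasmic reticulum, read 4.57, 5.03 and 7.12 on the old arrays, against 7.69, 7.68 and 7.87 on the young arrays. It was at least 2.83-fold lower on old replicates 1 and 2, with a difference over all arrays of -2.17 ± 0.63 (SE, limma adjusted p = 0.101). In neither gene did the groups overlap.

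Txnrd1, the selenoenzyme that recycles thioredoxin in the cytosol, read 5.97, 5.69 and 5.61 on the old arrays, against 5.96, 5.87 and 6.12 on the young arrays. The groups overlapped through old replicate 1 (-0.23 ± 0.21, SE, limma adjusted p = 0.370), and quantile normalization turned the difference to 0.15. Its values on old replicates 1 and 2 were within background, as the young values would be there, so these arrays do not show that its level was kept.

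Old replicate 3 was the old array whose signal resembled that of the young arrays, and it gave the defence genes lower values throughout. Each of the 13 probe sets was lower on it than on all 3 young arrays, which held for 31.8% of all probe sets and for 67.1% of those with a young mean above 7. By percentile within the array, 12 of 13 were lower, against 31.8% and 40.1%. The exception was 1 of the Prdx1 probe sets, which was also the only one with a higher value on old replicate 3 after quantile normalization of these 4 arrays. The median difference was -0.43, against 0.05 over all probe sets and -0.24 over those with a young mean above 7. In a limma fit of old replicate 3 against the young arrays, which assumes that the lone old array varies as they do, 4 of 13 probe sets were lower at an adjusted p under 0.05, beside 5.24% of all probe sets and 14.1% of those with a young mean above 7. In both directions 7.0% of all probe sets were called. The dimmer Prdx2 probe set and Prdx3 are among those called, but like Sod2 and Txnrd1 they have young means below 7. For them the shares of brighter probe sets are not a like comparison. Because the old group of this fit holds 1 array, the fit shows how that array differs and not how old mice do.

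Gpx1 led these 4, at -1.28 ± 0.14 (SE), or 2.43-fold lower (limma adjusted p = 0.00867). Only 45 of the 4817 brighter probe sets had a lower difference on this array. The second Prdx2 probe set was 1.77-fold lower (-0.82 ± 0.13, SE, limma adjusted p = 0.0188), while the first, at -0.33 ± 0.16 (SE), did not pass (limma adjusted p = 0.218). Prdx3 was 1.77-fold lower (-0.82 ± 0.18, SE, limma adjusted p = 0.0404) and Prdx4 1.55-fold lower (-0.63 ± 0.14, SE, limma adjusted p = 0.0423). Catalase differed by -0.67 ± 0.20 (SE, limma adjusted p = 0.0782). The other 7 probe sets lay between -0.44 and -0.18 and did not pass. On old replicate 3 the median difference of -0.43 over the 13 became -0.28 after quantile normalization of the 4 arrays and -0.53 after median centring. Without young replicate 1, 2 or 3 it was -0.44, -0.5 and -0.36. On this array the 13 B progenitor markers had a median difference of -0.29 with 2 called lower. The erythroid and neutrophil lists had medians of -0.15 and -0.20 with 0 called. Their mean log2 levels were 5.13 and 8.03 on old replicate 3, against 5.06 to 5.46 and 8.09 to 8.85 on the young arrays. The part of these cell types in the differences was not tested.

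**Figure D3:**
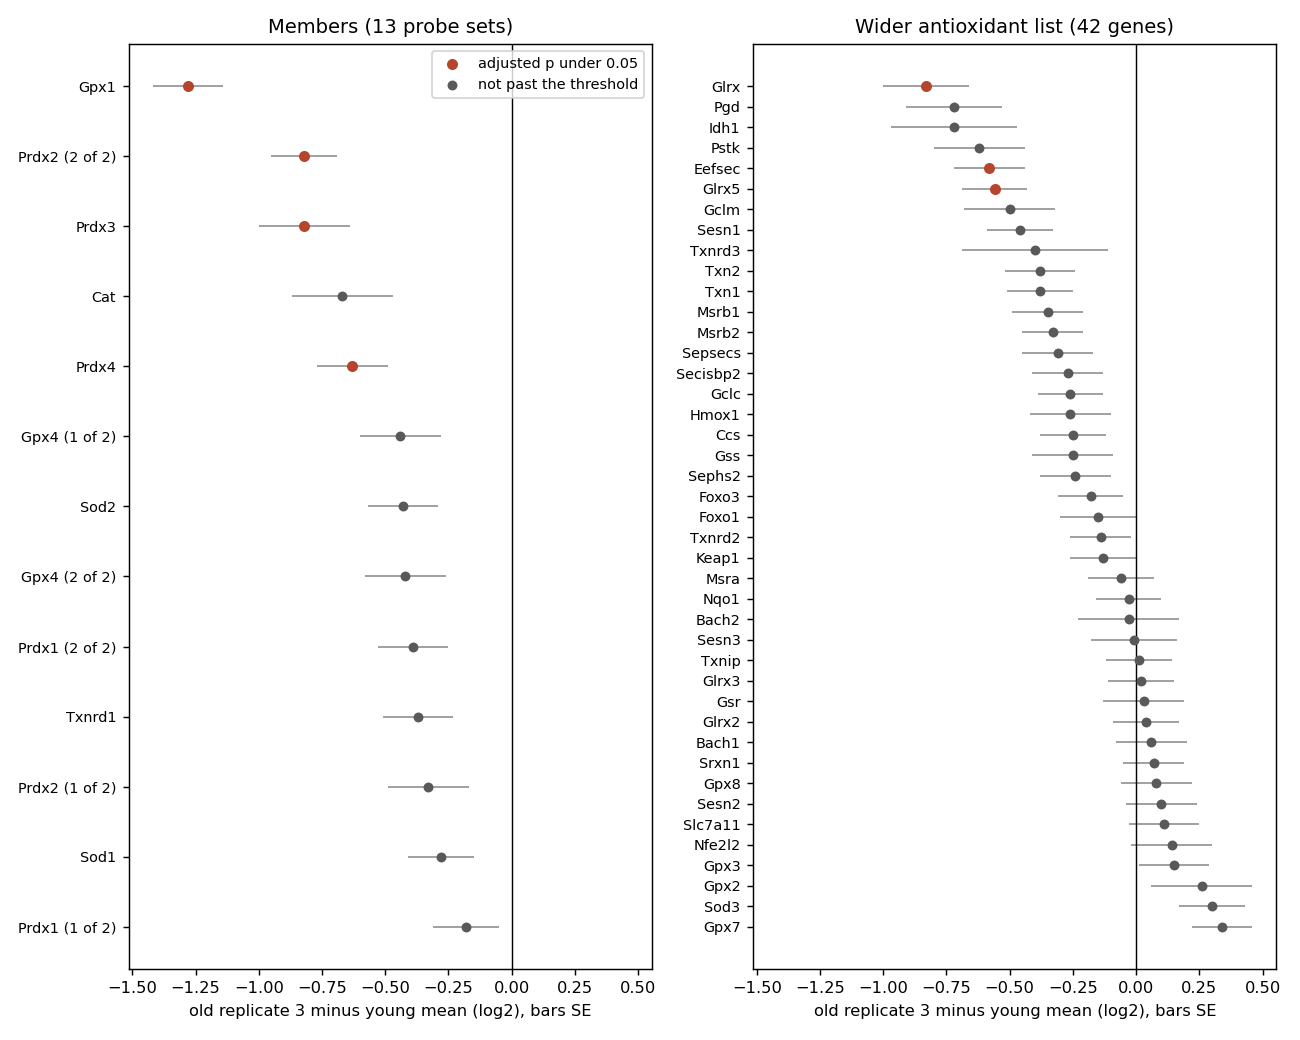
Difference of old replicate 3 from the mean of the young arrays on the log2 scale (horizontal axis) with its SE, for the 13 probe sets (left) and the 42 measured genes of the wider list (right), red where the adjusted p is under 0.05. All 13 points on the left lie below 0 and Gpx1 is lowest at -1.28, while on the right 28 of 42 lie below 0.

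The wider antioxidant list held 45 further genes of thioredoxin and glutathione supply, selenoprotein synthesis and their regulators, of which 42 had a probe set of their own. Over all 6 arrays 26 had lower and 16 higher means in old progenitors, with a median of -0.44. None passed the threshold in limma, while 15 lower and 1 higher had an unadjusted p under 0.05, against 21.9% and 24.9% of all probe sets. Without old replicate 3 the threshold was passed by 19 lower and 10 higher genes, beside 30.2% and 52.2% of all probe sets. On old replicate 3 alone 3 were lower (5.24% of all probe sets): Glrx, a glutaredoxin named after its values were seen, at -0.83 ± 0.17 (SE, limma adjusted p = 0.0350), Eefsec, the elongation factor for selenocysteine, at -0.58 ± 0.14 (SE, adjusted p = 0.0481), and Glrx5, a mitochondrial glutaredoxin of iron-sulphur cluster assembly, at -0.56 ± 0.13 (SE, adjusted p = 0.0466).

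Thioredoxin itself, Txn1, which reduces the peroxiredoxins, read 8.15, 8.68 and 10.59 on the old arrays, against 10.93, 10.94 and 11.05 on the young arrays. It was above background on all 6, and no old value reached a young one (-1.83 ± 0.6, SE, limma adjusted p = 0.101). On old replicates 1 to 3 it differed from its young mean by -2.82, -2.3 and -0.38. Probe sets with a young mean above 7 had median differences of -2.54, -2.22 and -0.24 there. Its percentile within an array was 97.8 to 98.1 on the old arrays, against 98.5 to 98.8 on the young arrays. Glrx5 read 6.42, 6.58 and 7.19 on the old arrays, against 7.69, 7.75 and 7.81 on the young ones, and Pgd, an NADPH-forming enzyme, read 6.48, 6.30 and 6.83 against 7.36, 7.46 and 7.82. Both were above background on all arrays with no overlap (-1.02 ± 0.26 and -1.01 ± 0.25, SE, limma adjusted p = 0.101 for each). Within an array Glrx5 stood at the 87.4, 89.4 and 84.4 percentiles in old progenitors, against 86.5, 87.0 and 86.4 in young ones. Pgd stood at 88.6, 84.9 and 80.5, against 83.4, 84.4 and 86.5. By that measure only old replicate 3 was below all young arrays for Glrx5 and Pgd. Glrx2, the mitochondrial glutaredoxin, named after its values were seen, stayed between 8.41 and 8.68 on the old arrays, against 8.58 to 8.69 on the young arrays. Pstk and Eefsec, of the selenocysteine pathway that Gpx1, Gpx4 and Txnrd1 depend on, averaged 4.47 ± 0.22 and 5.77 ± 0.17 in old progenitors, against 5.34 ± 0.21 and 6.54 ± 0.10 in young ones (SD, n = 3 each). Idh1, which makes NADPH in the cytosol, and Sesn1, a stress-induced sestrin, averaged 5.22 ± 0.71 and 6.04 ± 1.17 in old progenitors, against 6.70 ± 0.36 and 7.79 ± 0.08 in young ones. The groups of all 4 genes did not overlap, with old replicates 1 and 2 within background, and for Pstk old replicate 3 as well.

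Of the regulators of the pathway, Nfe2l2, Txnip and Bach2 had lower values on old replicates 1 and 2 than on old replicate 3. Txnip and Bach2 were within background on old replicates 1 and 2, as Nfe2l2 was on old replicate 2. Probe sets with a young mean above 7 had a median difference from young of -2.54 and -2.22 on those arrays. Nfe2l2 read 6.37, 5.17 and 7.97 on the old arrays, against 7.64, 7.94 and 7.89 on the young arrays, so that old replicate 3 was above all young arrays. Txnip, which binds and inhibits thioredoxin, read 4.68, 5.81 and 8.92 on the old arrays, against 8.86, 8.96 and 8.90 on the young arrays, and Bach2, a repressor known in B cells, 5.78, 5.32 and 8.44 against 8.71, 8.49 and 8.21. On old replicate 3 these 3 genes differed from the young mean by 0.14, 0.01 and -0.03. Keap1, the protein that holds Nrf2 for degradation, lay between 5.03 and 5.47 on the old arrays, against 5.53 to 5.67 on the young arrays, and Bach1, a repressor at antioxidant response elements, between 6.0 and 6.28 against 6.13 to 6.33. Both were within background on old replicates 1 and 2, so these arrays do not show that their levels were kept. Gsr, which recycles glutathione, and Srxn1, which repairs over-oxidised peroxiredoxins, were above background on 2 and 1 of 6 arrays. The genes with the smallest p among those higher in old progenitors, Gpx8, Gpx2, Sod3, Sesn2, Gpx7 and Gpx3, were within background on all old arrays, and Gpx2 alone was above it on 1 young array. Their changes are left without a size.

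Ratios within an array compare members with each other, and 4 pairs were taken, each gene by its brightest probe set. Gpx1 minus Gpx4 was -3.12, -2.96 and -0.01 on the old arrays, against 0.74, 1.04 and 0.78 on the young arrays. All old values were below all young values, old replicate 3 included, with a difference of -2.88 (2-sided exact permutation p = 0.1, adjusted p = 0.4 over 4 pairs). The smallest p that 3 against 3 arrays can give is 0.1. Sod1 minus Sod2 was 6.13, 5.79 and 4.95 on the old arrays, against 4.95, 4.82 and 4.59 on the young arrays, a difference of 0.83 (exact permutation p = 0.2). On old replicates 1 and 2 Sod2 and Gpx1 were within background, so the ratios and differences above have no measured size there. With these values raised to background, Gpx1 minus Gpx4 was at most -0.7 and -1.4 on those arrays, below every young array, and Sod1 minus Sod2 at least 3.96 and 4.93, which does not set it apart from the young arrays. Prdx1 minus Prdx3 differed by -1.47 (exact permutation p = 0.4) and Prdx1 minus Prdx2 by 1.47 (exact permutation p = 0.3). All 3 genes were within background on old replicates 1 and 2, and on old replicate 3 the differences were 0.44 and -0.05. Over all arrays the dimmer Prdx2 probe set, not used here, differed by -1.67, less in size than the -2.81 of Prdx1. The sign of Prdx1 minus Prdx2 therefore depends on which Prdx2 probe set is taken.

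**Figure D4:**
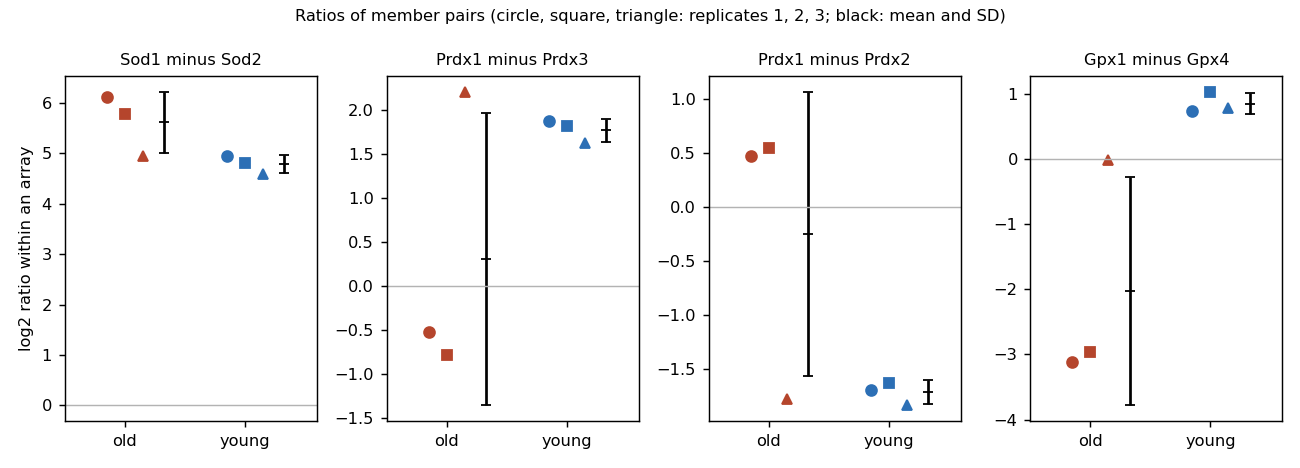
Difference of log2 values between 2 genes on the same array (vertical axis, a separate scale for each pair), old arrays in red left of young arrays in blue, with circles, squares and triangles for replicates 1, 2 and 3 and the mean and SD in black. Gpx1 minus Gpx4 is at or below -0.01 on the old arrays and at or above 0.74 on the young arrays.

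The median profile of the 13 probe sets, each set to its young mean, was -1.87, -2.32 and -0.43 on the old arrays. The genes outside the set nearest to it over the 6 arrays, by root mean square distance on the log2 scale, were Zfp131 (0.067), Pdia4 (0.0789), Rsrc1 (0.0805) and Bsdc1 (0.0809).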

How the data were processed

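The deposited values are probe set intensities. The authors made them with RMA, per the submitters' processing notes, with no version or settings stated in the sources at hand. The intensities are linear, so log2 was taken first. Groups follow the ages in the labels. Differences over the 23410 probe sets with a gene came from limma (3.58.1, R 4.3.3), age being the only factor, 2-sided, with the Benjamini-Hochberg adjustment over all of them. Wider-list genes, marker genes and the genes of the pairs use their brightest single-gene probe set. Tables and figures used Python 3.11.15 with matplotlib 3.10.9, pandas 2.3.3 and numpy 2.4.6, and the fit was tested on simulated data. Those data gave every array the spread of the young arrays. They cannot show how the fit behaves where 2 old arrays stand apart. Members, lists and rules were chosen with earlier results of these data known.

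Named genes are all members, 8 fixed wider-list genes and up to 6 more in each direction by smallest p, and the 4 nearest profiles. Ebf1 and S100a8 were fixed as defining markers. Glrx, Glrx2 and the B progenitor markers other than Ebf1 were named after their values were seen. No detection calls were used, so background came from receptor genes. A bound raises values within background to that level and does not correct for a shift of the whole array. Deviations of same-numbered old and young arrays correlated at 0.157, 0.15 and 0.279, each above the limit of 0.1. A fit with the replicate number as a block was therefore run as an alternative, although old replicate 1 also correlated at 0.153 with young replicate 2. The number of arrays limits the precision.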

Additional observations from a re-analysis of the deposited data

How the results depend on the processing

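Over all 6 arrays 0 of 13 defence probe sets were called with the replicate number as a block or without probe sets below the 30th percentile. The count was also 0 over all 28940 probe sets, after median centring or quantile normalization and with trended robust moderation. In the unaltered fit it stayed at 0 at an adjusted p under 0.1 and with a 1.5-fold change required. The smallest limma adjusted p of any probe set there was 0.101. With the replicate block, without the dimmest probe sets and with trended robust moderation it was 0.081, 0.0959 and 0.0672. In each of those fits most of the 13 lay below 0.1. The replicate block left the median difference at -1.67 and the pair ratios at 0.83, -1.47, 1.47 and -2.88. It changed no call at an adjusted p under 0.05. With array weights 11 were called, all lower, and 30 of the wider list, 20 of them lower. The weights were 0.2881, 2.598 and 0.04473 on old replicates 1, 2 and 3, so old replicate 3 counted for little. The share of all probe sets called in that fit was not taken, so its counts are no result about these genes. Without old replicate 3 altogether, 82.4% of all probe sets were called. Leaving out 1 array gave 0 to 11 calls, and 0 to 29 in the wider list, the highest without old replicate 3. Against the young arrays old replicate 3 alone gave 4 and 3 calls, a median of -0.43 and pair differences of 0.16 for Sod1 minus Sod2, 0.44 for Prdx1 minus Prdx3, -0.05 for Prdx1 minus Prdx2 and -0.86 for Gpx1 minus Gpx4. Its count of 4 became 2 after quantile normalization, with a median of -0.28, and ranged from 1 to 5 without 1 young array. These alternatives for old replicate 3 were chosen after seeing the data. Quantile normalization of all arrays turned the differences of Gpx4 (0.18 and 0.27), Txnrd1 (0.15) and Sod1 (0.79), and Sod1 also turned with array weights (0.26) and ranged from -0.40 to 0.05 when 1 array was left out, the highest without old replicate 1. The cause of these changes was not tested.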
